A study of Mus musculus with 16 samples.

Results

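The genes described here encode the protein components of the mitochondrial ribosome. They were taken as all genes on the array whose platform symbol is Mrpl or Mrps followed by a number and at most 1 letter. Each gene was thus included by its name and not by its measured values, but the family was chosen with earlier results of these data known. There were 73 such genes among the 17097 genes that had a probe set listed with a single symbol, and all 73 were among the 14819 genes that passed the filter on dim signals and were tested. Where a gene had several probe sets, the one with the highest mean across the 16 arrays stood for it. The 73 genes had 129 probe sets in all, and 38 of the genes had more than 1. All 73 matched an entry of the RefSeq table of assembly GRCm38.p6. Mrpl22, Mrpl45, Mrpl51, Mrps18c and Mrps28 had no probe set with a single symbol and were not analysed here.

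The mitochondrial ribosome (mitoribosome) translates the few messenger RNAs that are transcribed from mitochondrial DNA, and all of these encode hydrophobic subunits of the respiratory chain and of ATP synthase. Its ribosomal RNAs come from mitochondrial DNA, but every one of its proteins is encoded in the nucleus, made in the cytosol and imported. Mrpl genes are named for the large subunit, which joins amino acids, and Mrps genes for the small subunit, which reads the messenger. Many of the proteins descend from bacterial ribosomal proteins and others are found in mitochondria only. A few names do not match current knowledge of the structure: Mrps30 and Mrps18a proteins sit in the large subunit, and Mrps36 is now regarded as a component of the 2-oxoglutarate dehydrogenase complex rather than of the ribosome. By this assignment the 73 genes held 48 of the large subunit, 24 of the small subunit and Mrps36.

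Fibroblasts of the dermis, which make the skin's collagen-rich matrix, were taken from female C57Bl/6 mice and profiled on 16 Affymetrix arrays in 4 groups of 4: old cultured, young cultured, old in vivo and young in vivo cells. Old mice were 18 months and young mice 2 months of age, and no group carried a mutation or a treatment other than culture. In vivo means that RNA was taken straight after isolation. Each of 8 mice gave 1 in vivo and 1 cultured sample of 5000 cells, whose cDNA was amplified over 23 cycles, but which in vivo sample belongs with which cultured one is not labelled. How long, in which medium and to which passage the cells were grown is not given in the labels used here.

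Values are log2 signal intensities as deposited. Array medians lay between 4.74 and 4.76 in cultured samples and between 4.83 and 4.92 in in vivo samples, and the 75th percentiles between 6.73 and 6.85 in cultured samples and between 6.46 and 6.66 in in vivo samples. Correlations between arrays were 0.987 to 0.996 among cultured and 0.977 to 0.992 among in vivo arrays, against 0.879 to 0.913 between the conditions. Identical arrays were not found (0 pairs). Of 8 fibroblast markers, all 8 were detected in every group, with a mean level per array of 9.06 to 9.27 in old cultured, 9.04 to 9.40 in young cultured, 10.5 to 10.7 in old in vivo and 10.7 to 10.8 in young in vivo samples. Some markers of other cells were detected too. Against the 95th percentile of the poly-A control probe sets (4.34), 1 of 3 leukocyte markers (Ptprc) and 3 of 8 macrophage markers had a mean below it in each in vivo group. The mean level of the macrophage list was 4.38 to 4.45 in old cultured and 4.35 to 4.51 in young cultured arrays, against 5.03 to 5.08 in old in vivo and 5.04 to 5.24 in young in vivo arrays. None of the 73 mitoribosomal genes had a group mean below that control level. The lowest value of any member on any array was 4.44 and the highest was 10.8.

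The first comparison asked how culture changed these genes. Mitoribosomal genes were higher in cultured cells almost throughout: 66 of 73 rose (90.4%), 4 fell (5.48%) and 3 did not pass the threshold (limma, adjusted p under 0.05 over 14819 genes), so that 70 were called in either direction (95.9%). Over all genes tested, 34.8% rose, 44.7% fell and 79.5% were called in either direction. The median log2 change of the members was 0.85, or 1.81-fold, with quartiles of 0.52 and 1.24. Over all genes the median was -0.11, with quartiles of -0.37 and 0.50. At least 2-fold higher were 28 members (38.4%, against 13.3% of all genes) and 1 was at least 2-fold lower (against 8.1%). In 52 members (71.2%, against 23.9% of all genes) each of the 8 cultured arrays lay above each of the 8 in vivo arrays, and in 1 member all cultured arrays lay below (against 21.2%).

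**Figure D1:**
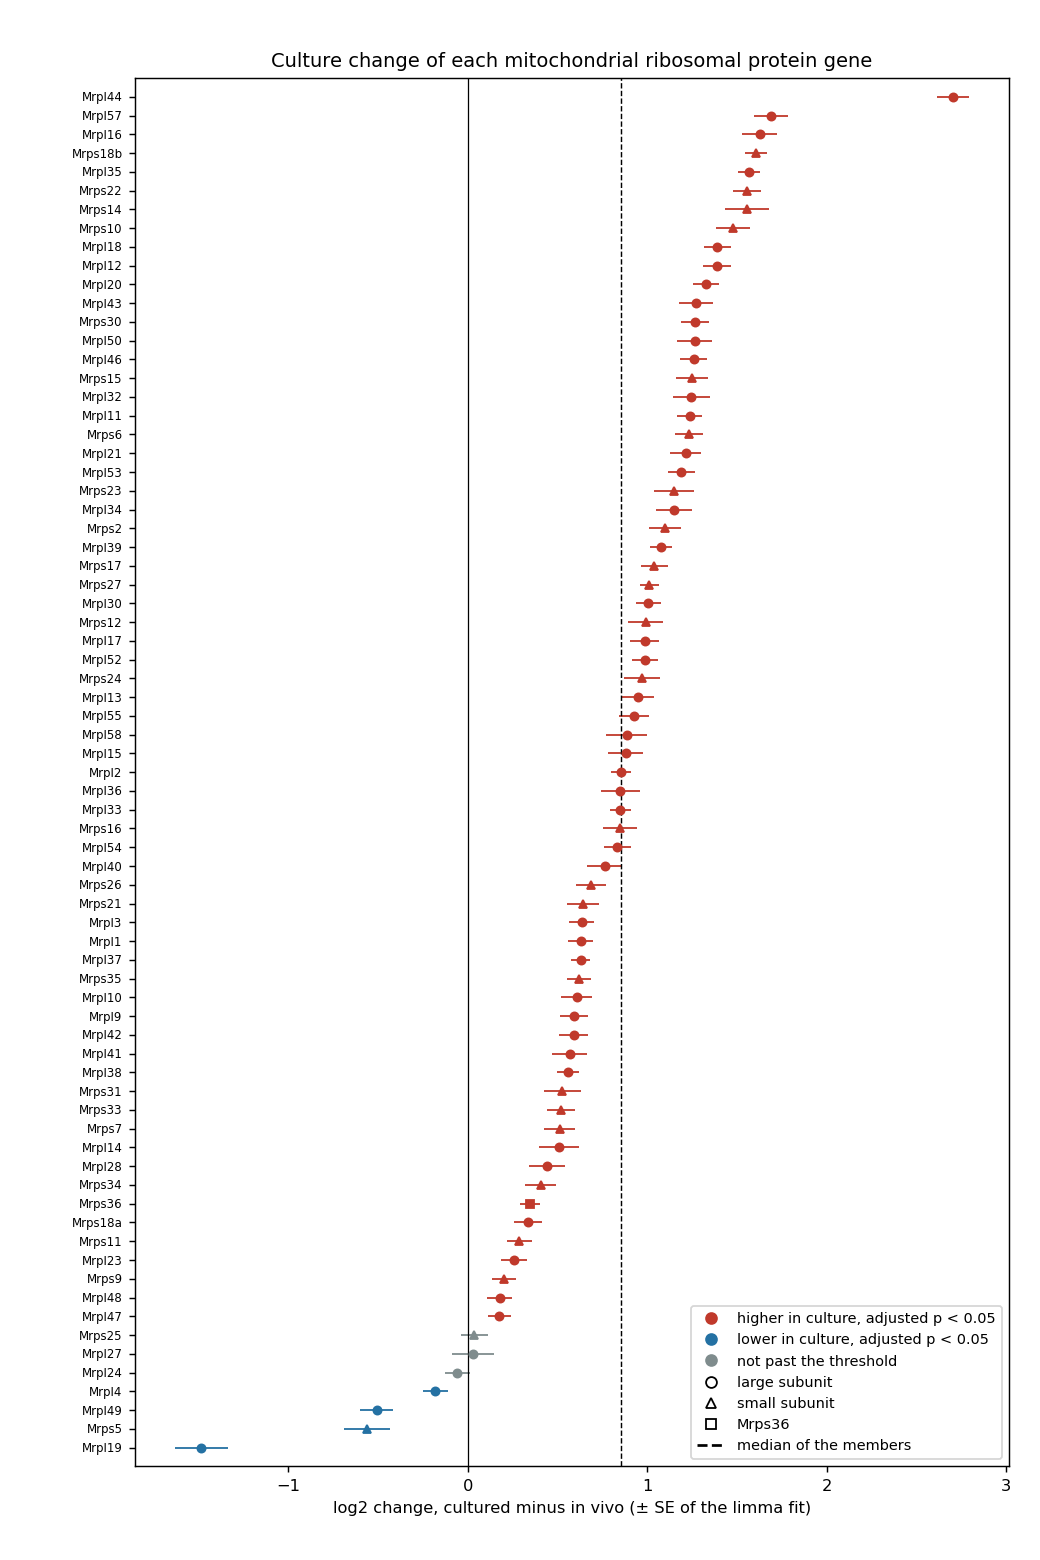
Log2 change of each of the 73 mitoribosomal genes, cultured minus in vivo, averaged over both ages, with bars for the standard error of the limma fit. Points to the right of 0 were higher in cultured cells: 66 passed the threshold on that side and 4 on the other, and the values ran from -1.49 to 2.71.

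When each member was centred on its own mean over the 16 arrays, the median over members was 0.42 to 0.49 in old cultured and 0.36 to 0.49 in young cultured arrays, against -0.42 to -0.09 in old in vivo and -0.72 to -0.45 in young in vivo arrays. The cultured groups overlapped each other. The old in vivo arrays all lay above the young in vivo arrays. The same measure over all genes tested stayed between -0.05 and 0.04 on every array. These are bulk samples, so a change in the share of cells of one kind and a change in RNA per cell cannot be told apart.

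**Figure D2:**
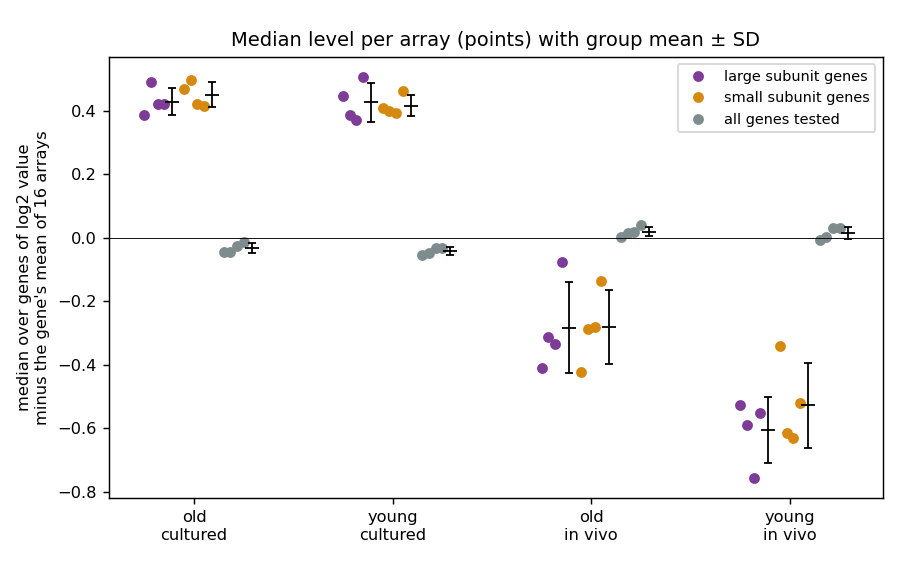
Median over genes of the log2 value centred per gene, 1 point per array, for the 48 large-subunit genes, the 24 small-subunit genes and all genes tested, in the 4 groups of 4 arrays, with the group mean ± SD. The large-subunit medians were 0.37 to 0.51 in cultured arrays, -0.41 to -0.08 in old in vivo and below -0.52 in young in vivo arrays, while the small-subunit medians of old in vivo (-0.42 to -0.14) and young in vivo arrays (-0.63 to -0.34) overlapped.

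Mrpl44, a large-subunit protein that lies near the exit of the polypeptide tunnel, changed most. Its values were 7.75, 7.92, 7.70 and 7.83 in old cultured and 7.81, 7.71, 7.63 and 7.78 in young cultured cells, against 5.46, 4.87, 5.15 and 5.56 in old in vivo and 4.68, 4.93, 4.81 and 5.03 in young in vivo cells. Every cultured array was at least 2 log2 units above every in vivo array, and the fitted change was 2.71 ± 0.09 (SE), or 6.52-fold (adjusted p = 6.05e-14). A second Mrpl44 probe set changed less, by 1.05 ± 0.09.

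Mrpl57, a small mitochondria-specific protein of the large subunit, had a lowest, median and highest value of 9.43, 9.59 and 9.65 over 8 cultured arrays and of 7.55, 7.74 and 8.20 over 8 in vivo arrays (change 1.69 ± 0.09). Mrpl16, the homolog of a bacterial protein at the core of the large subunit, had 9.44, 9.52 and 9.61 in cultured and 7.45, 7.86 and 8.40 in in vivo cells (1.63 ± 0.10). Mrps18b, one of several paralogs of a single bacterial small-subunit protein, had 9.45, 9.54 and 9.76 in cultured and 7.60, 7.90 and 8.29 in in vivo cells (1.61 ± 0.06). In each of these genes the gap between the conditions was wider than the range of the cultured arrays. The other members among the 10 with the largest increase were Mrpl35, Mrps22, Mrps14, Mrps10, Mrpl18 and Mrpl12, with changes of 1.57, 1.56, 1.56, 1.48, 1.39 and 1.39 and standard errors between 0.06 and 0.13. None of these 10 had overlapping conditions.

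The further members that rose at least 2-fold were Mrpl20, Mrpl43, Mrps30, Mrpl50, Mrpl46, Mrps15, Mrpl32, Mrpl11, Mrps6, Mrpl21, Mrpl53, Mrps23, Mrpl34, Mrps2, Mrpl39, Mrps17, Mrps27 and Mrpl30. Their log2 changes ran from 1.01 for Mrpl30 to 1.33 for Mrpl20.

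By subunit, 43 of 48 large-subunit genes rose and 3 fell (median 0.87), and 22 of 24 small-subunit genes rose and 1 fell (median 0.91). Of 45 members with a bacterial homolog, 40 rose and 3 fell (median 0.88), and of 27 mitochondria-specific members 25 rose and 1 fell (median 0.83). Mrps36, placed in neither subunit, rose by 0.35 ± 0.05, a call that was lost with cyclic loess (0.041).

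In the stalk, the flexible arm of the large subunit that recruits translation factors, all 3 genes rose: Mrpl12 by 1.39 ± 0.08, Mrpl53 by 1.19 ± 0.08 and Mrpl10 by 0.61 ± 0.09. In the central protuberance, the crown of the large subunit that faces the small one, all 5 rose. Mrpl18 led them at 1.39 ± 0.08, followed by Mrpl46 at 1.26 ± 0.07, Mrpl40 at 0.76 ± 0.10 and Mrpl38 at 0.56 ± 0.06. Mrpl48 changed by only 0.18 ± 0.07 (adjusted p = 0.0273), and its sign turned to -0.02 with 75th percentile scaling and to -0.13 with cyclic loess. That call was also lost without old cultured replicate 1 (0.16), young cultured replicate 4 (0.16), old in vivo replicate 3 (0.14) or young in vivo replicate 3 (0.15). A second, dimmer probe set of Mrpl48 rose by 0.71 ± 0.09.

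Among the proteins around the exit tunnel, where the nascent chain leaves the ribosome, Mrpl44 rose as above, Mrpl23 rose by 0.26 ± 0.07 and Mrpl24 did not pass (-0.06 ± 0.07). Mrpl23 had a change of 0.06 with 75th percentile scaling and of -0.053 with cyclic loess, neither past the threshold. Of the 3 listed core proteins of the large subunit, Mrpl2 rose by 0.85 ± 0.06 and Mrpl3 by 0.64 ± 0.07, and Mrpl4 fell.

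In the small subunit, Mrps12, which lines the decoding centre, rose by 0.99 ± 0.10, Mrps2 by 1.10 ± 0.09 and Mrps16 by 0.85 ± 0.09. Mrps22, a mitochondria-specific protein whose mutation in humans causes mitochondrial disease, rose by 1.56 ± 0.08. Mrps7, a protein of the subunit's head, rose by 0.51 ± 0.09, a call lost with cyclic loess (0.23). Mrps34, needed for a stable small subunit, rose by 0.41 ± 0.09. Of the large-subunit proteins with a small-subunit name, Mrps30 rose by 1.27 ± 0.08. Mrps18a rose by 0.34 ± 0.08, a call that was lost with 75th percentile scaling (0.14) and with cyclic loess (0.03).

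The 4 members that fell were Mrpl19, Mrps5, Mrpl49 and Mrpl4. Mrpl19, the homolog of a bacterial protein at the interface of the subunits, had 7.47, 7.33, 6.91 and 7.21 in old cultured and 8.23, 7.85, 7.35 and 7.07 in young cultured cells, against 8.95, 8.86, 8.69 and 9.31 in old in vivo and 8.81, 8.61, 9.08 and 8.99 in young in vivo cells. The conditions did not overlap, and the change was -1.49 ± 0.15, or 2.80-fold lower (adjusted p = 8.75e-08). Mrps5, which lies near the entry of the messenger RNA, changed by -0.56 ± 0.13. Its lowest, median and highest values were 5.92, 6.17 and 6.30 in cultured and 6.26, 6.58 and 7.38 in in vivo cells, so that the ranges overlapped slightly. Mrpl49, a mitochondria-specific large-subunit protein, changed by -0.51 ± 0.09, with 6.29, 6.65 and 6.91 in cultured and 6.83, 7.15 and 7.55 in in vivo cells.

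Mrpl4 changed by -0.18 ± 0.07 (adjusted p = 0.0262). It was measured by 1 probe set, with 8.90, 8.96 and 9.03 in cultured and 8.91, 9.03 and 9.59 in in vivo cells. The call was lost without young cultured replicate 3 (-0.17), old in vivo replicate 2 (-0.16) or old in vivo replicate 4 (-0.13), and with the ages pooled in the fit (adjusted p = 0.0717). The 3 members not past the threshold were Mrps25 (0.04 ± 0.07), Mrpl27 (0.03 ± 0.12) and Mrpl24 (-0.06 ± 0.07). Dimmer probe sets of Mrps25 changed by 0.815 ± 0.096 and by -0.21 ± 0.07, both past the threshold, so its direction was uncertain.

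For 3 of the 4 members that fell, other probe sets of the same gene went the other way. The other 3 probe sets of Mrpl19 rose, by 1.48 ± 0.11, 0.61 ± 0.08 and 1.73 ± 0.12. The second probe set of Mrpl49 rose by 0.53 ± 0.07. Mrps5 had 3 further probe sets, of which 1 rose by 0.35 ± 0.08, 1 changed by 0.12 ± 0.08 without passing and 1 fell by 0.32 on the log2 scale. The direction of these 3 genes in culture was therefore uncertain.

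Over all members, 52 further probe sets could be tested. Both the highest and the further probe set were called in 37 cases, with the same sign in 25 and opposite signs in 12. Besides the cases above, Mrpl11, Mrpl14, Mrpl21, Mrpl38, Mrpl41, Mrpl58 and Mrps15 each had a dimmer probe set that fell while the brightest one rose. The falling probe sets of Mrpl11 (group means of 4.05 to 4.235) and Mrpl58 (3.98 to 4.37) lay near the poly-A control level of 4.34. Further Mrpl11 probe sets rose by 1.22 ± 0.07 and 0.96 ± 0.06. For Mrps15 the dimmer probe set changed by -0.50 ± 0.08, the brightest by 1.25 ± 0.09 and 1 more by 1.53 ± 0.08. For Mrpl3 the further probe set rose more than the brightest, by 2.24 ± 0.11. Whether the probe sets of a gene read different transcripts was not tested.

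**Figure D3:**
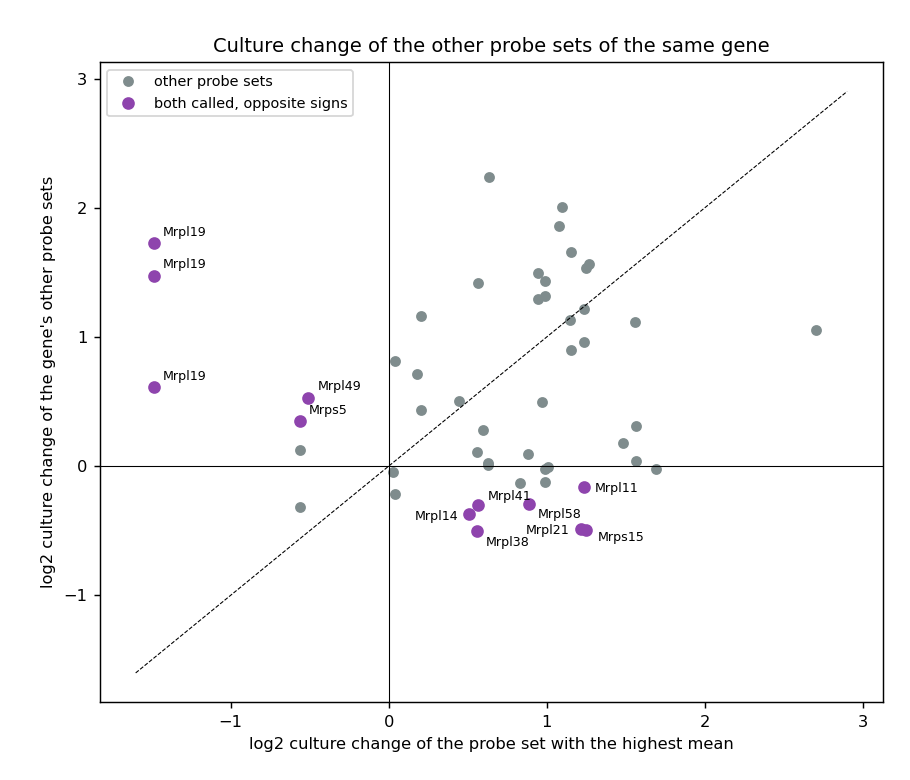
Culture change (log2, cultured minus in vivo) of the probe set with the highest mean on the horizontal axis and of each of the 52 other tested probe sets of the same gene on the vertical axis, with the line of equality dashed. In 12 cases, named in the plot, both were called with opposite signs, among them 3 probe sets of Mrpl19 that rose while the brightest fell.

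Promoter sequences are shown for the 2 members with the largest increase, Mrpl44 and Mrpl57. They are also shown for 2 that fell by their brightest probe set, Mrps5 and Mrpl49. Mrpl19 has no entry in the promoter table. Each sequence runs 5′ to 3′ along the gene's strand from 250 bases before the transcription start to 50 after it, from RefSeq, GRCm38.p6. Capitals mark matches to TGCGCA (the invariant part of the binding site of NRF1, a factor known to drive nuclear genes of mitochondrial proteins), CCGGAAG (the core recognised by ETS factors such as GABP) or ATGGCGG (the site of YY1). Both strands were searched.
Mrpl44 promoter, chr1:79775768-79776067, plus strand: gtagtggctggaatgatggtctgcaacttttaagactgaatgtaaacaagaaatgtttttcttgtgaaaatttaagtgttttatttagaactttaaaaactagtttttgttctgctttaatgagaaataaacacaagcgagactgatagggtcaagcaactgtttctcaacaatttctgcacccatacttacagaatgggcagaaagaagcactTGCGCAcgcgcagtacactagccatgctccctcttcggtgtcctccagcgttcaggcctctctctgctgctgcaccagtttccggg
Mrpl57 promoter, chr14:57825989-57826288, plus strand: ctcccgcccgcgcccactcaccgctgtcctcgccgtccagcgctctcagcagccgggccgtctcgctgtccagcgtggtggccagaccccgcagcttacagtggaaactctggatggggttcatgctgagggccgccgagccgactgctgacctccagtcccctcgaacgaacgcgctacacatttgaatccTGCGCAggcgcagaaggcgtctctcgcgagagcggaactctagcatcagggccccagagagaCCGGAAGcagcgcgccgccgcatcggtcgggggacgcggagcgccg
Mrps5 promoter, chr2:127587176-127587475, plus strand: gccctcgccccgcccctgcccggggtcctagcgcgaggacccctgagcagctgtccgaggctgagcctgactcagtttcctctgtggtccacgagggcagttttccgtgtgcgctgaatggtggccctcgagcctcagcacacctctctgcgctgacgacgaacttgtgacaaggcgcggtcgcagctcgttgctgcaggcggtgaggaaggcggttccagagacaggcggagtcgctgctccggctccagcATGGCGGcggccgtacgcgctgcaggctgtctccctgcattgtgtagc
Mrpl49 promoter, chr19:6057706-6058005, minus strand: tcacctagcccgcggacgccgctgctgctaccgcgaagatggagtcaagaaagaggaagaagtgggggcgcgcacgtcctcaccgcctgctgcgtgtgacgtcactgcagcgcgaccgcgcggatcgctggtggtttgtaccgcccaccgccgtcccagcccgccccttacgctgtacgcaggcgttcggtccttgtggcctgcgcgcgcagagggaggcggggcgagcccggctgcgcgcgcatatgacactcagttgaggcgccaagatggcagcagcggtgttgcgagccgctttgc
The Mrpl44 window held TGCGCA at position -36 relative to the start, and the Mrpl57 window held TGCGCA at -58 and CCGGAAG at 4. The Mrps5 window held ATGGCGG at 2, and none of the 3 strings was in the Mrpl49 window.

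The table held 71 windows of 65 members among 32851 windows of 27025 genes. CCGGAAG was in 23 member windows (32.4%, against 8.86% of all windows), TGCGCA in 20 (28.2%, against 7.76%) and ATGGCGG in 12 (16.9%, against 4.05%). At least 1 of these strings was in 43 member windows (60.6%, against 18.1%). CACGTG, the E-box bound by MYC, was in 6 (8.45%, against 7.15%) and CCAAT, bound by NFY, in 30 (42.3%, against 37.4%). TGCGCA and CACGTG read the same on both strands. The member windows had a median GC content of 59.0%, against 52.7% in all windows, and a median of 21 CpG dinucleotides, against 7. The strings differ in GC content, and the part that base composition plays in these shares was not tested.

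Of the 65 members with a window, 24 (36.9%) had another gene starting within 1000 bases upstream on the opposite strand, as had 3311 of 27025 genes (12.3%). Mrpl46 and Mrps11 are such a pair, 42 bases apart, and rose by 1.26 and 0.29. Of the partners, 22 were tested: 8 rose, 9 fell and 5 did not pass, with a median change of -0.04. Over all genes tested 34.8% rose and 44.7% fell, with a median of -0.11. Among the 22 partners 2 were members themselves, Mrpl46 and Mrps11, each counted as the partner of the other. Mrpl18 (1.39) starts beside Tcp1, a subunit of the cytosolic chaperonin, which rose by 1.12 ± 0.05. Mrps18b (1.61) starts beside Ppp1r10, a regulator of protein phosphatase, which changed by -1.80 ± 0.12.

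The culture change was then taken within each age. In old cells 62 members rose (84.9%, against 30.2% of all genes) and 4 fell (against 32.5%), with a median of 0.79. In young cells 63 rose (86.3%, against 32.6%) and 3 fell (against 38.6%), with a median of 0.93. Mrpl19, Mrps5 and Mrpl49 fell at both ages by their brightest probe set. Mrpl4 passed in old cells (-0.38 ± 0.10) but not in young cells (0.02 ± 0.10). This age difference was itself not called in the limma test of the interaction (adjusted p = 0.229). Within old cells, every cultured array lay above every in vivo array in 57 members (78.1%, against 27.6% of all genes) and below in 4 (5.48%, against 30.5%). Within young cells the counts were 60 above (82.2%, against 30.6%) and 2 below (2.74%, against 33%). In young cells the number that fell was 1 without young cultured replicate 3 or without young in vivo replicate 4.

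Other properties of the samples moved with culture. The signal of the 3' probe set of beta-actin minus that of its 5' probe set, a readout of RNA integrity and cDNA length, was 0.10 ± 0.07 in old cultured and 0.07 ± 0.04 in young cultured samples, against -0.46 ± 0.11 in old in vivo and -0.41 ± 0.07 in young in vivo samples (SD, n = 4 each). For Gapdh the same readout overlapped between the conditions. It was -0.150 ± 0.022 in old cultured and -0.105 ± 0.065 in young cultured samples (SD). In vivo it was -0.145 ± 0.017 in old and -0.078 ± 0.035 in young samples (SD). Proliferation markers rose in 8 of 9 genes, with a median log2 change of 3.99. Fibroblast markers fell in 8 of 8 genes (median -0.89). Of the tested markers of other cells, 5 of 6 for macrophages (median -0.46), 2 of 2 for leukocytes (-0.27) and 4 of 4 for T cells (-0.18) fell in culture. So did 4 of 5 for keratinocytes (-0.57), 4 of 5 for endothelium (-0.38) and 4 of 4 for melanocytes (-0.40). Over all genes 44.7% fell (median -0.11). Of the 4 T cell markers, 3 had a mean below the poly-A control level in each of the 4 groups, and 0 were called within young cells. With cyclic loess 1 leukocyte, 1 T cell and 2 keratinocyte markers fell. The macrophage marker Cd68 changed by -2.59, the endothelial receptor gene Kdr by -2.35 and the keratin gene Krt10 by -1.58. Of 5 pericyte and smooth muscle markers 1 rose and 2 fell, and of 4 skeletal muscle markers 1 rose and 3 fell. The part of these properties in the culture change of the mitoribosomal genes was not tested.

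The second comparison asked which members differed with age in freshly isolated cells. Here 18 of 73 were higher in old in vivo cells (24.7%, against 4.49% of all genes tested) and 0 were lower (against 1.59%), by limma with all 16 arrays in the fit. In either direction 6.07% of all genes were called. At an unadjusted p under 0.05 the counts were 39 higher (53.4%, against 13.6% of all genes) and 0 lower (against 6.09%). The differences were small: the median was 0.27 on the log2 scale, against 0.02 over all genes, none reached 2-fold, and 67 of 73 were positive. In 12 members (16.4%, against 5.8% of all genes) every old in vivo array lay above every young in vivo array, and in 0 below (against 2.73%).

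These calls rest on the spread being shared with the cultured arrays. When the fit was limited to the 8 in vivo arrays, 1 member was called, Mrpl38 (adjusted p = 0.0473), against 0.911% of all genes, and the other 17 had adjusted p between 0.0610 and 0.207. The count was 9 with 75th percentile scaling, 9 with cyclic loess and 11 without old in vivo replicate 4.

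Mrpl38, a protein of the central protuberance, had 7.06, 7.03, 6.96 and 7.28 in old in vivo cells, against 6.66, 6.65, 6.54 and 6.48 in young in vivo cells. The ages did not overlap, and the difference was 0.50 ± 0.09, or 1.41-fold (adjusted p = 0.00324). Its other 2 probe sets differed by -0.06 ± 0.11 and 0.07 ± 0.10, neither past the threshold, and with the mean over probe sets the call was lost (0.17). Mrps15, a small-subunit protein with a bacterial homolog, had 7.78, 7.86, 8.15 and 8.43 in old in vivo cells, against 7.67, 7.26, 7.26 and 7.41 in young in vivo cells. Here too all old samples were above all young ones (0.66 ± 0.13), and a second bright probe set differed by 0.51 ± 0.11.

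Mrps33, a small mitochondria-specific protein of the small subunit, had 8.56, 8.52, 8.59 and 8.49 in old in vivo cells, against 8.26, 8.05, 7.73 and 8.03 in young in vivo cells (0.52 ± 0.11). The old samples lay within 0.1 of each other while the young ones were spread more widely. Mrpl55, a mitochondria-specific protein of the large subunit, had 6.87, 7.28, 7.50 and 7.55 in old in vivo cells, against 6.72, 6.66, 6.68 and 6.87 in young in vivo cells (0.57 ± 0.12). Its ages met at 6.87. Mrps27, a small-subunit protein of the pentatricopeptide repeat family, which binds RNA, had 7.44, 7.51, 7.38 and 7.51 in old in vivo cells, against 6.96, 7.02, 7.21 and 7.20 in young in vivo cells (0.36 ± 0.08).

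The other members among the 10 with the smallest p were Mrpl35 (0.41 ± 0.09), Mrpl39 (0.41 ± 0.09), Mrps18b (0.40 ± 0.09), Mrps18a (0.52 ± 0.11) and Mrps17 (0.49 ± 0.11). In Mrps18a, old in vivo replicate 4 was far above the others (9.03, against 8.49 to 8.57 in the other old samples and 7.93 to 8.22 in young in vivo samples). The remaining calls were Mrpl2, Mrpl4, Mrpl32, Mrpl58, Mrps2, Mrps22, Mrps30 and Mrps36. Of the 18, Mrpl2, Mrpl35, Mrpl38, Mrpl39, Mrpl55, Mrps15, Mrps17, Mrps18a, Mrps18b, Mrps27 and Mrps33 were called in each of the 8 fits that left out 1 in vivo array. Mrpl4, Mrpl58, Mrps22 and Mrps30 were called in 2 of these 8 fits, Mrpl32 in 3, and Mrps2 and Mrps36 in 4. All 8 fits kept the cultured arrays and so shared their spread. They cannot show whether a call holds without it, and with in vivo arrays alone only Mrpl38 was called.

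The large subunit held 10 of the 18 calls (median difference 0.28) and the small subunit 7 (median 0.16). The stalk had 0 of 3 called, with none of the 3 genes above 0.27. The members' highest and lowest values gathered on certain arrays: old in vivo replicate 4 was the highest of its group in 44 of 73 members, against 30.4% of all genes, and young in vivo replicate 3 was the lowest of its group in 37, against 32.8%.

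**Figure D4:**
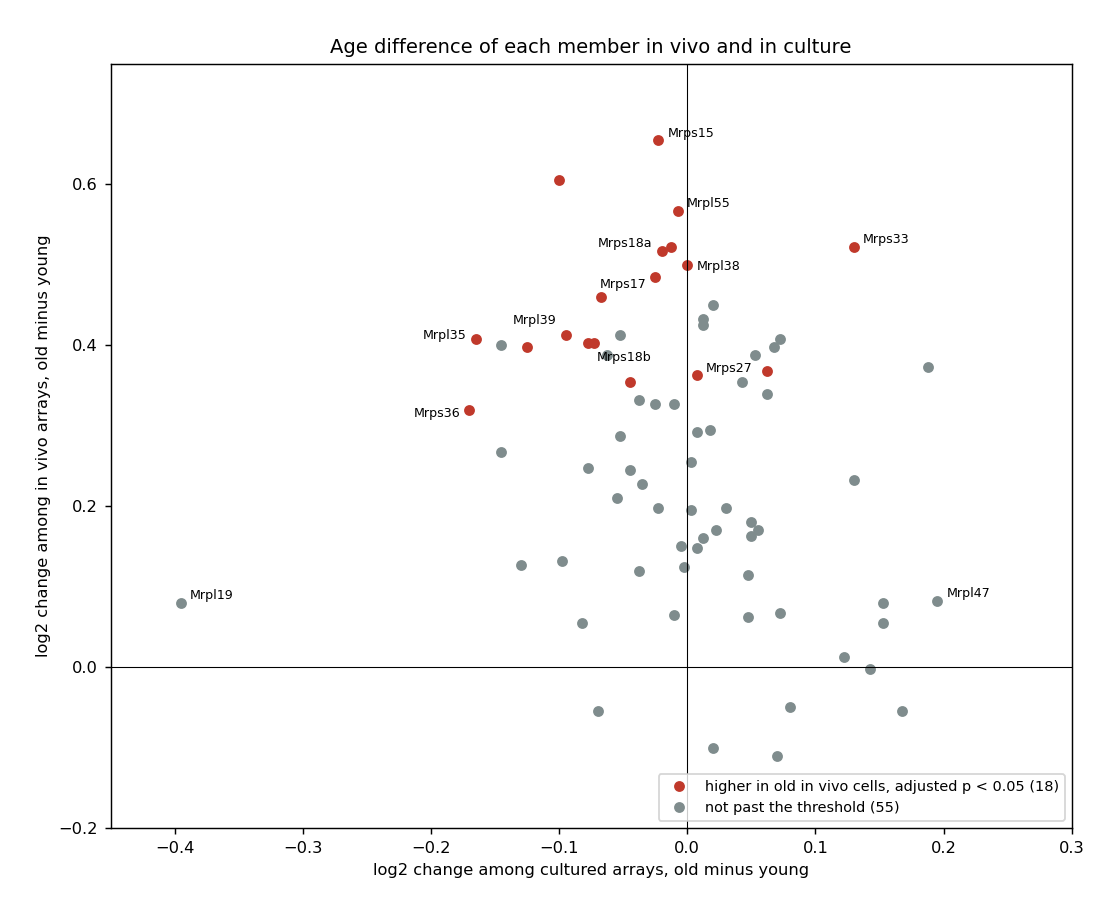
Log2 difference between old and young cells for each of the 73 members, among in vivo arrays on the vertical axis and among cultured arrays on the horizontal axis. The 18 members called in vivo (limma, 16 arrays) lie between 0.32 and 0.66 on the vertical axis, and none was called among cultured arrays.

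Other properties of the in vivo samples differed with age. The 3' minus 5' signal of Gapdh was -0.17 to -0.13 in old in vivo and -0.12 to -0.04 in young in vivo arrays, which did not overlap, while that of beta-actin overlapped. The 75th percentile of the array was 6.60 to 6.66 in old in vivo and 6.46 to 6.65 in young in vivo arrays. Young in vivo replicate 3 had the lowest of these (6.46), the highest array median (4.92) and the lowest centred member median (-0.715). Of 5 tested keratinocyte markers 0 passed (limma), with a mean level of the list of 4.83 to 5.96 in old in vivo and 4.77 to 5.01 in young in vivo arrays. Of 6 tested macrophage markers 1 fell, Csf1r (-1.08), and of 5 pericyte and smooth muscle markers 1 rose, Kcnj8 (1.06). Of 5 endothelial markers 0 passed, with 5.25 to 5.84 in old in vivo and 5.11 to 5.30 in young in vivo arrays. The part of these values in the age difference of the mitoribosomal genes was not tested.

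The same question was then asked of cultured cells. No member was called by limma (0 of 73, and 0% of all genes), with 1 higher and 1 lower at an unadjusted p under 0.05 (1.37% each, near the 0.897% and 0.965% of all genes). The median difference was 0.00, with 36 members above 0 and 36 below. The smallest p were those of Mrps36 (-0.17 ± 0.08), Mrpl47 (0.20 ± 0.09), Mrpl35 (-0.17 ± 0.09) and Mrpl19 (-0.40 ± 0.21), all with an adjusted p of 1. Mrps36 had 8.48, 8.41, 8.35 and 8.29 in old cultured cells, against 8.56, 8.54, 8.51 and 8.60 in young cultured cells, with no overlap. It was the 1 member whose old cultured arrays all lay below the young cultured arrays (1.37%, against 0.864% of all genes), and in Mrps5 they all lay above (also 1 member, against 1.19% of all genes).

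The interaction (old minus young among cultured arrays, less the same difference among in vivo arrays) was called for 1 member, Mrpl35 (-0.57 ± 0.12, adjusted p = 0.0469), a large-subunit protein with a bacterial homolog. Over all genes 0.391% were called in this direction and 0.196% in the other. Mrpl35 had 8.21, 8.32, 8.13 and 8.19 in old cultured and 8.36, 8.36, 8.30 and 8.49 in young cultured cells, against 6.90, 7.02, 6.86 and 6.95 in old in vivo and 6.70, 6.33, 6.62 and 6.45 in young in vivo cells. Old cells were thus above young cells in vivo without overlap, while in culture the ages overlapped. The call was lost with 75th percentile scaling (-0.49), cyclic loess (-0.49), the mean over probe sets (-0.28), limma's trend and robust settings, and in 13 of the 16 fits that left out 1 array. It held without old in vivo replicate 1, young in vivo replicate 1 or young in vivo replicate 3. Over all members the median interaction was -0.28, against -0.015 over all genes. At an unadjusted p under 0.05 it was negative in 24 members (32.9%, against 8.37% of all genes) and positive in 0 (against 3.93%). It uses the same in vivo arrays as the second comparison.

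Members varied more between in vivo than between cultured samples. The median SD within groups was 0.0889 in culture and 0.201 in vivo, an in vivo to culture ratio of 2.26, and 66 of 73 members (90.4%, against 72.1% of all genes) were more variable in vivo. Over all genes the median SDs were 0.129 in culture and 0.185 in vivo. For the age difference in vivo the shared spread is therefore too small for most members, and for the age difference in culture too large.

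Genes that act beside the mitoribosome were counted in the same fits. For each list below, the shares over all genes tested in culture were 34.8% rising and 44.7% falling, with a median of -0.11. Of 4 mitoribosomal proteins whose names fall outside the pattern, 3 rose in culture: Ptcd3 (0.96 ± 0.07), Dap3 (0.67 ± 0.07) and Chchd1 (0.45 ± 0.08, lost with cyclic loess at 0.14). Gadd45gip1, known also as CRIF1, fell by 0.21. Ptcd3, a pentatricopeptide protein of the small subunit, was also higher in old in vivo cells by 0.57 ± 0.10.

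Of 22 tested genes for mitoribosome assembly and ribosomal RNA modification, 14 rose and 1 fell (median 0.37), against 34.8% and 44.7% of all genes. Fastkd2, which binds the large ribosomal RNA, rose by 2.08 ± 0.10 and the GTPase gene Mtg1 by 1.32 ± 0.10, while the methyltransferase gene Mrm1 fell by 0.31. Of 9 mitochondrial translation factors 8 rose (median 0.44), led by the elongation factors Gfm1 (1.94 ± 0.12) and Tufm (1.41 ± 0.10). Of 16 aminoacyl-tRNA synthetases of mitochondria 11 rose and 3 fell (median 0.46). Gars (1.78 ± 0.07) and Kars (1.45 ± 0.11), which serve the cytosol too, rose most.

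Among 11 genes that maintain and transcribe mitochondrial DNA 7 rose and 2 fell (median 0.59), against 34.8% and 44.7% of all genes. Ssbp1, the single-strand binding protein, rose by 2.33 ± 0.08 and Lrpprc, which stabilises mitochondrial messengers, by 1.44 ± 0.11. Polrmt, the mitochondrial RNA polymerase, rose by 1.25 ± 0.10 and Tfam, which packages mitochondrial DNA, by 1.18 ± 0.07. Polg2, the accessory subunit of the DNA polymerase, fell by 2.89. Of 8 regulators of mitochondrial biogenesis 4 rose and 1 fell (median 0.19, and -0.01 with 75th percentile scaling): Gabpb1 rose by 1.24 ± 0.11 and Myc by 0.57 ± 0.09, Yy1 fell by 0.97, and Nrf1 changed by 0.04 ± 0.06 without passing.

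Of 77 nuclear genes of the respiratory chain and ATP synthase, whose products join the subunits made by the mitoribosome, 68 rose and 4 fell (median 0.65). Among all genes 34.8% rose and 44.7% fell. Cox5a (2.06 ± 0.11) and Uqcrfs1 (1.52 ± 0.09) rose most. Of 22 import translocases 19 rose and 1 fell (median 0.74), led by Tomm70a (2.83 ± 0.09) and Tomm20 (2.49 ± 0.11), receptors of the outer membrane. Of 11 citrate cycle genes 9 rose and 0 fell by limma (median 1.04), with 2 not past the threshold.

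Cytosolic ribosomal proteins were less uniform, with 42 of 64 rising and 3 falling (median 0.22), against 34.8% and 44.7% of all genes. Their counts turned with the scaling, to 20 rising and 15 falling with 75th percentile scaling and to 10 rising and 22 falling with cyclic loess (median -0.08). With 75th percentile scaling 11 assembly genes rose and 4 fell (median 0.17), 6 translation factors rose and 1 fell (0.24), 8 synthetases rose and 4 fell (0.26), and 7 genes of mitochondrial DNA maintenance rose and 3 fell (0.39). Of the respiratory chain genes 59 rose and 9 fell with 75th percentile scaling, and 54 and 11 with cyclic loess (median 0.37). Of the import translocases 15 rose and 2 fell with cyclic loess (median 0.45). The mitoribosomal genes had 60 rising and 6 falling with 75th percentile scaling (median 0.66) and 57 and 6 with cyclic loess (median 0.58). Of all genes called in culture, 31.6% rose with 75th percentile scaling and 46.7% with cyclic loess, against 43.7% with the values as deposited. The increases no longer called were those of Mrpl23, Mrpl47, Mrpl48, Mrps9, Mrps11 and Mrps18a with 75th percentile scaling, and of Mrpl14, Mrpl23, Mrpl28, Mrpl48, Mrps7, Mrps9, Mrps11, Mrps18a and Mrps36 with cyclic loess. With 75th percentile scaling the median culture change of all genes shifted by -0.20 and stood at -0.31.

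**Figure D5:**
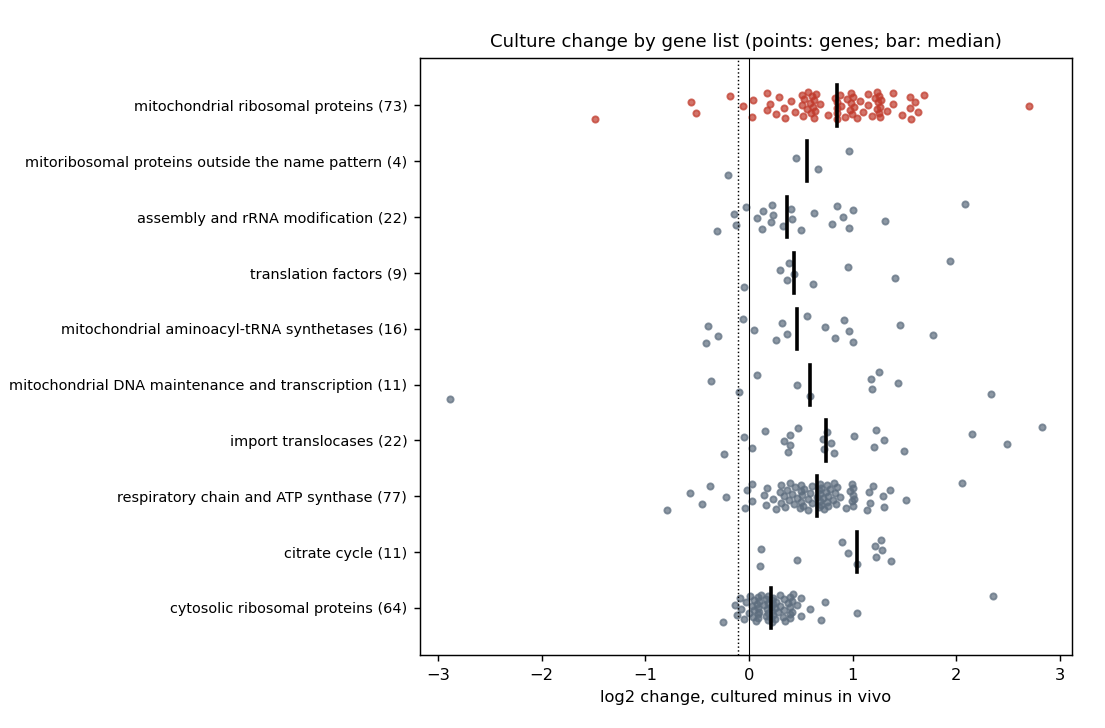
Log2 change in culture (cultured minus in vivo) of each tested gene, 1 point per gene, in the mitoribosomal genes and the related lists, with the number of genes in brackets, a bar at each list's median and a dotted line at the median of all genes (-0.11). The mitoribosomal median of 0.85 lies between that of the citrate cycle genes at 1.04 and that of the import translocases at 0.74.

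By age in vivo, the related lists had 10 of 77 respiratory chain genes higher and 0 lower (median 0.19) and 3 of 11 citrate cycle genes higher (median 0.32). Higher too were 12 of 64 cytosolic ribosomal proteins (median 0.15), 2 of 22 import translocases (median 0.16) and 2 of 22 assembly genes (median 0.19). Over all genes tested 4.49% were higher and 1.59% lower, with a median of 0.015. Of the other lists, 1 of 9 translation factors was higher (Guf1, 0.39; list median 0.09), 0 of 8 regulators were called by limma (median 0.08), 0 of 16 synthetases were higher and 1 was lower (Gars, -0.37; list median 0.09), and of 11 genes of mitochondrial DNA maintenance only Ssbp1 was called (list median -0.025). With 75th percentile scaling and cyclic loess the counts higher were 5 and 7 of the respiratory chain genes, 6 and 2 of the cytosolic ribosomal proteins, and 1 and 1 each of the citrate cycle, import and assembly genes. Of all genes called for age in vivo under these scalings, 55.9% and 58.7% were higher. Ndufa12, an accessory subunit of complex I, differed by 0.74 and Tomm70a by 0.89. Ssbp1 was higher in old in vivo cells by 0.81 ± 0.11. In culture no gene of these lists was called for age by limma, as none was over all genes.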

How the data were processed

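RNA of 5000 cells per sample was amplified as cDNA and hybridised to Affymetrix mouse arrays. The deposited values are probe set intensities on a log2 scale with 2 decimals. The authors made them with RMA (package affy), per the submitters' processing notes, with no version given. The base of the log and whether the 16 arrays were normalised together are not stated; base 2 was inferred because the values span the range usual for RMA. Changes of dim genes come out too small with RMA, and all changes are relative to the overall signal of the arrays.

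Of 45141 probe sets, 28898 had 1 symbol, 551 several and 15692 were not listed. Testing required a value over 3.87 on 4 or more arrays (the 25th percentile of all values). Group means of all 16 arrays were fitted with limma 3.58.1 (lmFit, eBayes, R 4.3.3) without a block. The 6 contrasts were culture, culture in old cells, culture in young cells, age in vivo, age in culture and their interaction. Two-sided p-values were adjusted by the Benjamini-Hochberg method across 14819 genes, and the threshold was 0.05. The several probe sets of a gene were compared in a separate fit of the same form, adjusted across 24235 probe sets. A ± gives the fit's standard error, or the SD where so marked. The steps were tested on simulated data. The number of arrays limits the precision.

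The members and gene lists were chosen with earlier results of these data known. Named were, for culture, the 10 largest increases, every decrease and every member not past the threshold. For age and the interaction, up to 10 and 8 called members were named, otherwise the 4 or 3 with the smallest p. Members of fixed role groups and those whose probe sets disagree were named whatever their values, and from each related list up to 4 of the largest changes, with a few regulators added after their values were seen. Lactb was dropped from the related list after its value was seen, since it is no component of the mitoribosome.

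Alternatives were 75th percentile scaling, cyclic loess, other filters, the mean over probe sets, trend and robust settings, array weights, fits of only the groups compared and leaving out each array.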

Additional observations from a re-analysis of the deposited data

Results flagged for a closer look

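Of 168 groups of 4 arrays screened for a lone extreme value, 5 held one, and chance gives about 1 in 20. In Mrps25, young cultured replicate 3 was low at 6.37, with the others at 6.72 to 6.74. In Mrps18a, old in vivo replicate 4 was high at 9.03, with the others at 8.49 to 8.57. In Mrps36, young in vivo replicate 2 was high at 8.14, with the next at 7.92. In Mrpl23, old in vivo replicate 1 was low at 8.99, with the next at 9.19. The median over all members, centred per gene, was high in old cultured replicate 2 at 0.49, with the next at 0.42.

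The culture change of Mrpl35 differed between old and young cells by -0.57 in the test of the interaction (limma, adjusted p = 0.0469).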

How the results depend on the processing

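No paired analysis was possible because the labels carry no replicate numbers that tie samples of a mouse or a day together. The count of members that rose in culture was 57 to 66 under every alternative run, and that of members higher with age in vivo was 1 to 22. The alternatives that moved a value beyond its tolerance were these. With 75th percentile scaling, cyclic loess and the mean over probe sets, the median culture change was 0.66, 0.58 and 0.64, in old cells 0.63, 0.53 and 0.57, and in young cells 0.69, 0.65 and 0.74. Less the median of all genes, the culture change was 0.97 with 75th percentile scaling, against 0.96 with the values as deposited and 0.62 with cyclic loess. With the mean over probe sets, 1 member fell in culture, 1 in old and 0 in young cells, and with cyclic loess 6 fell in young cells. The count higher with age in vivo was 9 with 75th percentile scaling, 9 with cyclic loess and 1 with the 8 in vivo arrays alone. The interaction was called lower for 0 members with 75th percentile scaling, cyclic loess, or trend and robust settings, for 2 without a filter and for 7 with array weights. Of all genes called for the interaction, 33.3% were higher without a filter and 31.9% with array weights.

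The culture change turned its sign for Mrpl19 (0.58) and Mrpl49 (0.012) with the mean over probe sets. It also did for Mrpl27 (-0.17), Mrpl47 (-0.02), Mrpl48 (-0.02) and Mrps25 (-0.16) with 75th percentile scaling and for Mrpl23 (-0.053), Mrpl27 (-0.26), Mrpl48 (-0.13) and Mrps25 (-0.10) with cyclic loess. Apart from the probe sets, which differ by construction, the cause was not tested. Leaving out each array in turn gave 65 to 66 members rising and 3 to 4 falling in culture, 57 to 63 and 4 in old cells, and 62 to 63 and 1 to 3 in young cells. It gave 11 to 22 members higher with age in vivo and 0 to 6 lower in the interaction, with 6 without old in vivo replicate 1 and 2 without young in vivo replicate 1 or 2. Without old in vivo replicate 1, 26% of all genes called for the interaction were higher. The share of all culture calls that were increases was 43.7%, against 31.6% with 75th percentile scaling and 46.7% with cyclic loess.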
